A study of Homo sapiens with 24 samples.

Results

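The EGF receptor family and its ligands were followed here as 8 genes: the receptors EGFR, ERBB2 and ERBB3, and the ligands HBEGF, AREG, EREG, TGFA and BTC. They were taken by name, with symbols matched to the Ensembl identifiers of the deposited tables, out of 60675 gene identifiers. All 8 had enough reads to enter the test, which covered 20668 genes.

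EGF receptors are tyrosine kinases of the cell membrane that dimerise when a ligand binds and then signal through RAS and MAP kinase, PI3 kinase and other routes. ERBB2 has no known ligand and acts as a partner for the other receptors, whereas ERBB3 has little kinase activity and binds neuregulins. The ligands are made as membrane proteins and released by proteases such as ADAM17, so that epithelial cells, including those of colorectal tumours, can stimulate themselves and their neighbours.

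RNA came from HCT116, a human colorectal cancer cell line, in 3 versions: p53 wild type (WT), p53 Mutant and p53 Null. Each was grown in McCoy 5A medium with 10% serum and received solvent, 20 uM APR-246 (a compound developed to restore function to mutant p53), 6 Gy of irradiation without drug, or APR-246 followed by 6 Gy (the combination). Irradiated cells were collected 72 hours after irradiation, and the labels give no time for the other cells. Each of the 12 groups had 2 libraries, numbered 1 and 2 by the labels, which do not say whether these came from separate cultures, so p-values measure only the spread between these libraries, which may be technical. Each p53 status was represented by 1 line, so p53 status and any other difference between the lines cannot be told apart.

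The 24 libraries held 53184139 to 58058729 reads assigned to genes. The 6 epithelial marker genes examined summed to 4966 to 17820 CPM (reads of a gene scaled to a common library total), against 0.225 to 0.980 for 6 blood cell genes and 0.964 to 4.12 for 4 endothelial genes. The 6 fibroblast genes summed to 11.8 to 69.1 CPM, of which COL1A1 alone held 11.5 to 67.9, while DCN and LUM were at 0 in 19 and 22 libraries.

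The 4 ligand genes whose RNA was lower after irradiation are shown here by the sequence just upstream of the gene, since 3 of them are neighbours. EREG (chr4:74365143-74388751, plus strand), AREG (chr4:74445134-74455009, plus strand) and BTC (chr4:74744759-74794686, minus strand) lie with a further ligand gene, EPGN, in 486.2 kb of chromosome 4 (GRCh38, GENCODE 29). HBEGF is on chromosome 5 (chr5:140332843-140346631, minus strand). The stretches below, from RefSeq (GRCh38.p14), end where the annotated gene begins and read 5′ to 3′ on the strand of the gene, with capitals for motif matches.
EREG, chr4:74364895-74365142, plus strand: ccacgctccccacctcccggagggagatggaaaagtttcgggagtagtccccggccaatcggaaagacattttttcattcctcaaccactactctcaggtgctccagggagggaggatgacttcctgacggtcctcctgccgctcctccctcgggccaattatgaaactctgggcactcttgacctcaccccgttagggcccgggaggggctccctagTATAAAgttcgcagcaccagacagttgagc
AREG, chr4:74444886-74445133, plus strand: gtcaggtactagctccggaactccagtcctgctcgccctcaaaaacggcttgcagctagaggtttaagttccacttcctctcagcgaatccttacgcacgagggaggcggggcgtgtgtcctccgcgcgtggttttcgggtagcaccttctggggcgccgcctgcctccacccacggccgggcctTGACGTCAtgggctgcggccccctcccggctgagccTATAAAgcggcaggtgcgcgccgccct
BTC, chr4:74794687-74794773, minus strand: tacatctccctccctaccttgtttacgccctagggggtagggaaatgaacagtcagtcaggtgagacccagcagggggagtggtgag
HBEGF, chr5:140346632-140346853, minus strand: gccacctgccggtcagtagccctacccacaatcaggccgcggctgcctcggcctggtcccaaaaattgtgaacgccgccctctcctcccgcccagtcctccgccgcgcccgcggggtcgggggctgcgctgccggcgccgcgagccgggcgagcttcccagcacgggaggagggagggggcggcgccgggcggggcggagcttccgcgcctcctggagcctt

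Motifs were sought on both strands of RefSeq windows that run from 250 bases before to 50 bases after a start, which 7 of the 8 genes had (9 windows, ERBB3 being the gene without an entry). The AREG window held the cyclic AMP response element TGACGTCA, whose first base was 65 bases before the start, and 1.85% of all 35116 windows held this motif. TATAAA, chosen after the sequences were seen, began 29 bases before the start of AREG and 32 before that of EREG. In 1 of the 2 EGFR windows it began 36 and 146 bases before the start, and 11.5% of all windows held it. The AP-1 motif TGANTCA occurred in the single ERBB2 window and in 1 of the 2 EGFR windows (7.71% of all windows). Neither the ATF4 composite element TGATGNAA (3.62% of all windows) nor the p53 half-site (6.63%) was present in any of the 9 windows, and the BTC and HBEGF windows held no match to any of the 5 motifs. A match is a run of letters, and no binding was measured.

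In solvent, amphiregulin (AREG) was the most abundant of the 8 per unit of length in every line. Its level was 420 ± 174 CPM per kb of exon in WT, 116 ± 37.4 in Mutant and 205 ± 96.5 in Null (mean ± SD, n = 2 libraries throughout). Epiregulin (EREG), a ligand of EGFR and ERBB4, followed at 69.8 ± 39.8, 50.8 ± 36.9 and 30.4 ± 18.6 CPM per kb. Betacellulin (BTC) was the least abundant at 2.36 ± 1.67, 1.48 ± 1.05 and 0.590 ± 0.268. On the same scale TGFA stood at 13.8 to 14.9 and HBEGF at 5.07 to 21.0 over the 3 lines. Among the receptors ERBB2 (12.03 to 12.8 CPM per kb) had the highest mean in every line, followed by EGFR (6.91 to 11.4) and ERBB3 (3.25 to 4.41). In Mutant, ERBB2 at 12.44 ± 2.91 and EGFR at 11.41 ± 6.6 lay within their spread, so their order there is not settled. Thus AREG and EREG RNA exceeded that of each receptor in all 3 lines by their means.

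**Figure D1:**
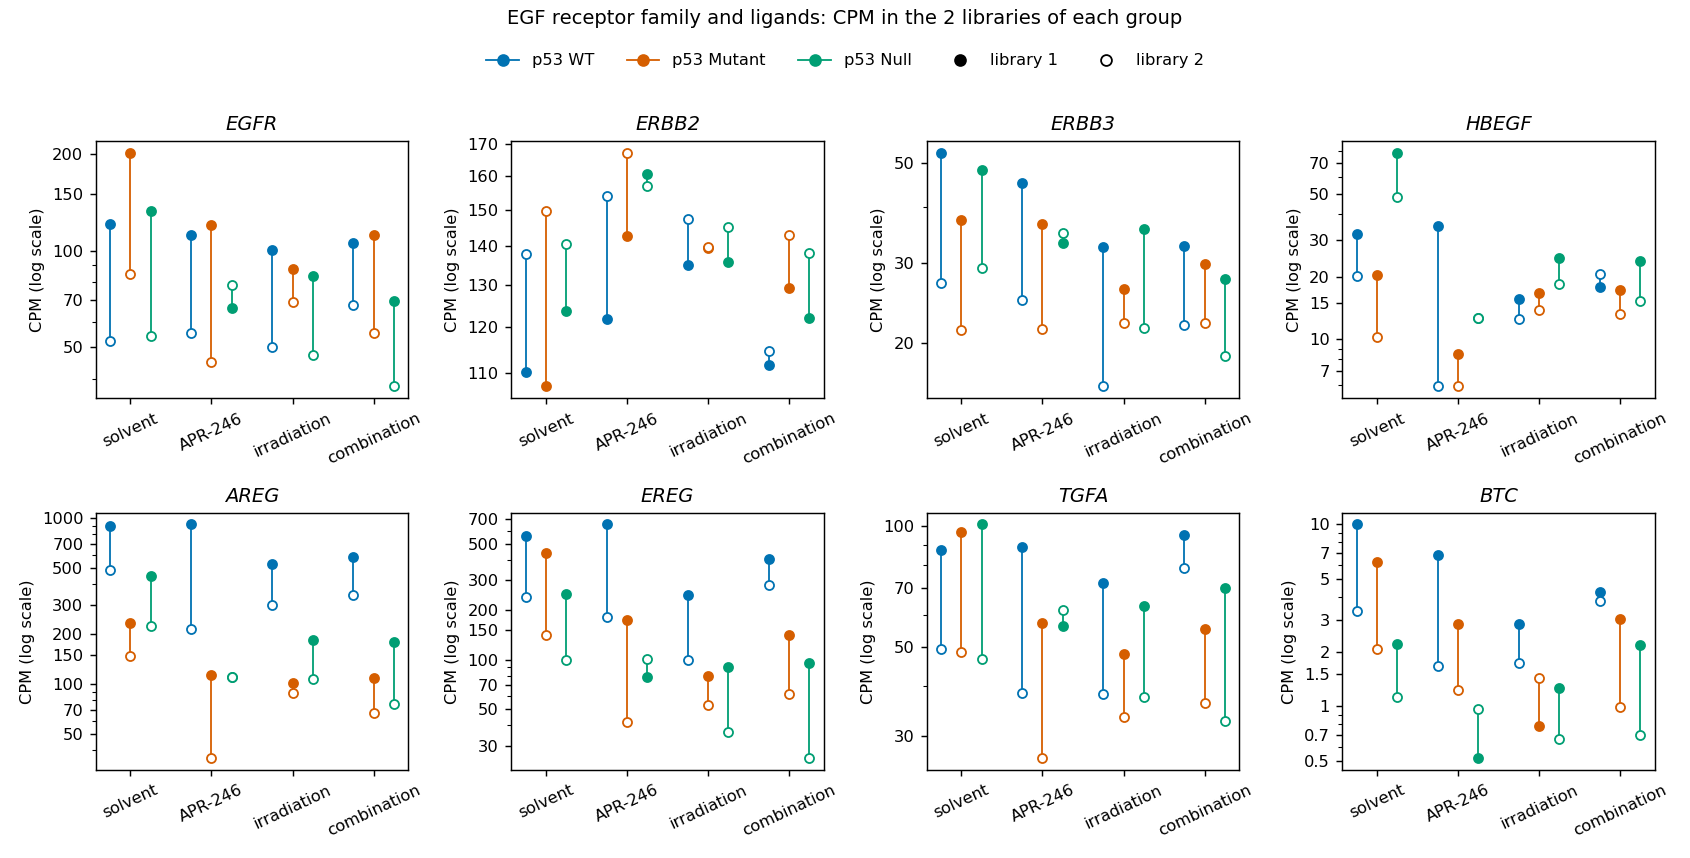
CPM (log scale) of the 8 genes in each of the 24 libraries, by treatment and p53 line. Filled and open points are libraries 1 and 2 of a group, joined by a line, and the points of AREG, EREG and BTC are highest in the WT line.

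The 2 libraries of a group differed in a way that ran through most of the 8 genes and is given first because every test rests on it. On the log2 scale used for testing, EREG was on average 0.81 higher in library 1 than in library 2, and was higher there in 11 of 12 groups. For AREG, TGFA and ERBB3 library 1 was the higher in 12 of 12 groups, by 0.51, 0.38 and 0.24 on average. For ERBB2 it was the reverse, with a mean difference of -0.56 and library 1 higher in 1 of 12 groups. The order follows the base composition of the genes at its ends. EREG has the lowest GC content of the 8 (36.1% of the exon bases of its longest transcript) and ERBB2 the highest (57.5%). For each library, the deviation of a gene's log2 expression from its mean over the 24 libraries was set against GC content. Genes with a mean log2 level of at least 2 were used, so the slope is relative to the average library. This slope ran from -0.065 to 0.014 per percent in the 12 libraries numbered 1 and from -0.021 to 0.059 in those numbered 2. In the group Null APR-246 the slopes were 0.0142 in library 1 and -0.008 in library 2, and EGFR, EREG and TGFA had their lowest differences there (-0.07, -0.20 and 0.04). Averaged over the 6 libraries of a treatment the slope was -0.010 in solvent, -0.004 in APR-246, -0.003 in the combination and 0.017 in irradiation. The part of this slope in the differences between treatments was not tested, and for the means over lines the calls with the slope as a covariate are given beside each result where they differ.

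**Figure D2:**
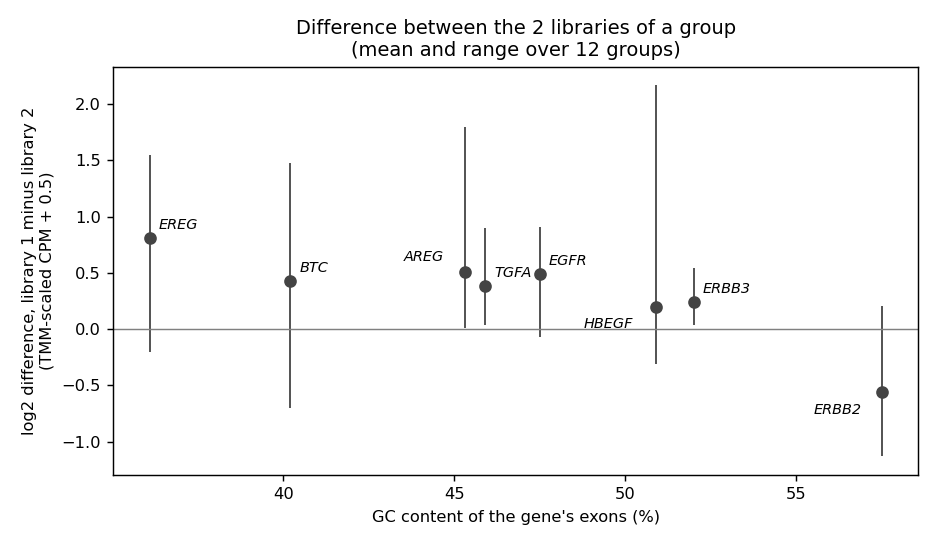
Difference between library 1 and library 2 of a group on the log2 scale (mean over 12 groups, with bars from the lowest to the highest group) against the GC content of each gene. GC content is that of the exons in the gene's longest transcript. EREG, at 36.1% GC, has a mean of 0.81 and ERBB2, at 57.5%, a mean of -0.56.

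The first question was how irradiation changed the family. Averaged over the 3 lines, 5 of the 8 genes fell at 72 hours (limma, Benjamini-Hochberg adjusted p under 0.05 over all tested genes): the ligands EREG, BTC, AREG and HBEGF and the receptor ERBB3. None rose. In this comparison 13% of all tested genes passed, 6.13% as lower. The median log2 difference of the 8 genes was -0.67, against -0.01 for all tested genes. In bulk RNA, fewer cells of a kind and less RNA per cell cannot be told apart.

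EREG fell by 1.55 ± 0.36 (log2 difference ± SE, adjusted p = 0.0098), the largest fall of the 8. In WT cells it was at 560 and 238 CPM in solvent (libraries 1 and 2) and at 245 and 99.5 after irradiation. In Mutant cells the values were 440 and 141 in solvent and 80.1 and 53.5 after irradiation. In Null cells they were 249 and 98.7 in solvent and 90.0 and 36.7 after irradiation. Both irradiated libraries lay below both solvent libraries in Mutant and Null, whereas in WT irradiated library 1 lay just above solvent library 2. By library number (1 and 2), irradiated WT values were 0.437 and 0.418 of solvent. Every omission of 1 of the 12 libraries left EREG past the threshold, with differences of -1.71 to -1.39.

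BTC, a ligand of EGFR and ERBB4, fell by 1.07 ± 0.28 (adjusted p = 0.0194). It was at 9.99 and 3.32 CPM in WT solvent and at 2.85 and 1.73 in irradiated WT. In Mutant the values were 6.24 and 2.08 in solvent and 0.784 and 1.43 after irradiation, and in Null 2.19 and 1.13 in solvent and 1.26 and 0.659 after irradiation. The irradiated libraries were all lower in WT and Mutant and overlapped with solvent in Null.

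AREG, a ligand of EGFR alone, fell by 0.98 ± 0.28 (adjusted p = 0.0292). It was at 895 and 490 CPM in WT solvent and at 529 and 298 in irradiated WT, where the groups overlapped. By library number (1 and 2), irradiated WT values were 0.591 and 0.608 of solvent. In Mutant the values were 234 and 147 in solvent and 100.8 and 87.8 after irradiation. In Null they were 450 and 225 in solvent and 184 and 108 after irradiation. The irradiated libraries were all lower in Mutant and Null.

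HBEGF, a heparin-binding ligand of EGFR and ERBB4, fell by 0.78 ± 0.25 (adjusted p = 0.0498), just inside the threshold, and lost its call on omission of any of the 12 libraries. Null solvent libraries had 78.6 and 48.1 CPM and irradiated ones 24.5 and 18.3. WT solvent libraries had 31.9 and 20.2 and irradiated ones 15.6 and 12.5. Mutant solvent libraries had 20.3 and 10.3 and irradiated ones 16.7 and 13.9. The groups did not overlap in WT and Null, and overlapped in Mutant, where the log2 difference was 0.16 ± 0.43.

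ERBB3 fell by 0.48 ± 0.14 (adjusted p = 0.0367). WT solvent libraries had 52.6 and 27.1 CPM and irradiated ones 32.5 and 16.0. Null solvent libraries had 48.1 and 29.2 and irradiated ones 35.8 and 21.6, and Mutant solvent libraries had 37.4 and 21.3 and irradiated ones 26.2 and 22.1. Solvent and irradiated libraries overlapped in every line when both library numbers were pooled. By library number (1 and 2), irradiated values were 0.618 and 0.59 of solvent in WT and 0.744 and 0.739 in Null. In Mutant they were 0.702 and 1.04.

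The other receptors and TGFA, the ligand that signals through EGFR, did not pass. EGFR gave -0.47 ± 0.22 (adjusted p = 0.182), TGFA -0.55 ± 0.19 (adjusted p = 0.0657) and ERBB2 0.12 ± 0.26 (adjusted p = 0.8). Over the 6 irradiated libraries EGFR ran from 47.3 to 100.7 CPM and TGFA from 33.4 to 72.1, against 52.4 to 201 and 46.7 to 101 in the 6 solvent libraries. Those ranges, pooled over lines and library numbers, overlapped for both genes. Between libraries of the same number and line, irradiated values were 0.434 to 0.958 of solvent for EGFR and 0.496 to 0.825 for TGFA. The labels do not say what a number marks.

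The irradiation calls depended on single libraries and on scaling. Omitting WT solvent 1, WT irradiation 2, Mutant solvent 1, Mutant irradiation 1, Null solvent 1 or Null irradiation 2 left 1 gene past the threshold, EREG in each case, and omitting Mutant irradiation 2 left 2 and Null irradiation 1 left 3. Without TMM scaling, whose factors ran from 0.741 to 1.28, none of the 8 passed. With the GC slope as a covariate, a fit that called 37.3% of all genes, 6 passed: HBEGF did not (-0.70, adjusted p = 0.0512), TGFA did (-0.37, adjusted p = 0.00602), and ERBB2 turned to -0.20 (adjusted p = 0.0203).

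Within single lines irradiation gave no call for the 8 genes by limma. The share of all genes called was 1.56% in WT, 0.0774% in Mutant and 0.677% in Null, and 2, 2 and 4 of the 8 genes had an unadjusted p under 0.05, as had 12.2%, 13.1% and 11.8% of all tested genes. By edgeR 0 of the 8 genes passed in each line, and by DESeq2 0 in WT, 1 in Mutant (EREG) and 1 in Null (HBEGF). DESeq2 called 3.98%, 2.89% and 3.55% of all genes in these lines.

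The question of APR-246 alone was answered by the same comparison with its own 6 libraries, against the same solvent libraries. HBEGF and AREG fell, 2 of the 8 genes, and none rose. For this comparison 3.15% of tested genes passed, 1.96% as lower, and the median difference of the 8 was -0.64 against -0.01 for all tested genes.

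HBEGF fell by 1.41 ± 0.25 (adjusted p = 0.00814), with differences of -1.77 to -1.05 and a call under each omission of 1 of the 12 libraries. APR-246 libraries had 12.7 and 12.7 CPM in Null, 8.45 and 5.93 in Mutant, and 34.9 and 5.93 in WT. Set against the solvent values above, both APR-246 libraries were lower in Null and Mutant. In WT library 1 was above both solvent libraries and library 2 below both.

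AREG fell by 1.29 ± 0.28 (adjusted p = 0.019). APR-246 libraries had 110 and 110 CPM in Null, 114 and 35.7 in Mutant, and 919 and 214 in WT. Both were below solvent in Null and Mutant, and in WT library 1 was the highest AREG value of the 24 libraries. The AREG call was lost on omission of WT APR-246 2, Mutant APR-246 2, Null APR-246 2 or Null solvent 1, and without TMM scaling.

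EREG gave -0.89 ± 0.36 (adjusted p = 0.218) and BTC -0.80 ± 0.28 (adjusted p = 0.144). EREG was at 653 and 181 CPM in WT, 173 and 42.1 in Mutant, and in Null 78.2 and 101.4. BTC was at 6.82 and 1.67 in WT, 2.85 and 1.24 in Mutant, and in Null 0.519 and 0.968. EREG overlapped with solvent in all 3 lines, and BTC was wholly below solvent in Null. With the GC slope as a covariate, a fit that called 27.4% of all genes, 6 of the 8 passed as lower: HBEGF, AREG, EREG (-0.79), BTC (-0.74), TGFA (-0.43) and EGFR (-0.38). Omitting WT APR-246 1 raised the count from 2 to 4 by adding TGFA and BTC.

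ERBB2 was higher in both APR-246 libraries of the Null line (161 and 157 CPM) than in both solvent libraries (124 and 140), yet its mean difference over lines was 0.16 ± 0.26 (adjusted p = 0.861). ERBB3 gave -0.18 ± 0.14 (adjusted p = 0.633).

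In single lines HBEGF passed in Null, where it fell by 2.41 ± 0.43 (adjusted p = 0.0498) and where 0.131% of tested genes passed. This call was lost on omission of any of the 4 libraries (differences of -2.49 to -2.33) and by edgeR. In Mutant and in WT no member passed, and 0% of all tested genes did. Unadjusted, 4 of the 8 in Mutant and 0 in WT had p under 0.05 (7.34% and 2.69% of all tested genes), and both edgeR and DESeq2 called 0 in each. Omitting WT APR-246 1 gave 1 call in WT, HBEGF at -1.98.

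After the combination, 4 of the 8 genes were lower than in solvent as a mean over lines: AREG, EREG, HBEGF and ERBB3, and none was higher. The share of all genes called was 13.9%, with 6.29% lower, and the median difference of the 8 was -0.61 against 0.01 for all genes. This comparison shares its solvent libraries with the 2 before it, so the 3 sets of values are not independent.

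AREG fell by 1.17 ± 0.28 (adjusted p = 0.0111) and kept its call under each of the 12 omissions (-1.28 to -1.05). Its values were 583 and 347 CPM in WT, 109 and 66.8 in Mutant, and in Null 179 and 76.2. As after irradiation, both libraries lay below solvent in Mutant and Null.

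EREG fell by 1.19 ± 0.36 (adjusted p = 0.0357). It was at 401 and 283 CPM in WT, within the range of the solvent libraries, at 141 and 62.3 in Mutant and at 95.5 and 25.4 in Null. In Mutant the higher value fell just under solvent library 2, and in Null both were below solvent.

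HBEGF fell by 0.80 ± 0.25 (adjusted p = 0.0445). The Null libraries, at 23.7 and 15.3 CPM, were below solvent, whereas Mutant (17.2 and 13.3) and WT (17.8 and 20.5) overlapped with it. ERBB3 fell by 0.57 ± 0.14 (adjusted p = 0.0137), from the solvent values above to 32.7 and 21.8 CPM in WT, 29.9 and 22.1 in Mutant, and in Null 27.7 and 18.6. Only in Null were both ERBB3 libraries lower than solvent.

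BTC gave -0.64 ± 0.28 (adjusted p = 0.145), EGFR -0.58 ± 0.22 (adjusted p = 0.0971) and TGFA -0.37 ± 0.19 (adjusted p = 0.216). BTC was at 4.22 and 3.78 CPM in WT, 3.01 and 0.9899 in Mutant, and in Null 2.17 and 0.700, and overlapped with solvent in every line. Any omission of 1 library ended the HBEGF call, and the count fell from 4 to 2 on omission of solvent library 1 of any line, WT combination 1, Mutant combination 2 or Null combination 2, and to 1 without WT combination 2. Without TMM scaling 0 passed. All 8 did, each as lower, with the GC slope as a covariate, in a fit that called 43.8% of all genes.

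In single lines the combination gave no call for the 8 genes by limma, where 2.23% of all genes passed in WT, 0.348% in Mutant and 1.95% in Null. An unadjusted p under 0.05 was seen for 1, 2 and 4 of the 8, and for 13.8%, 11.8% and 15.1% of all tested genes. By edgeR 0 passed in each line, and by DESeq2 1 in WT, 0 in Mutant and 3 in Null. DESeq2 called 4.83%, 3.06% and 5.44% of all genes in these lines.

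**Figure D3:**
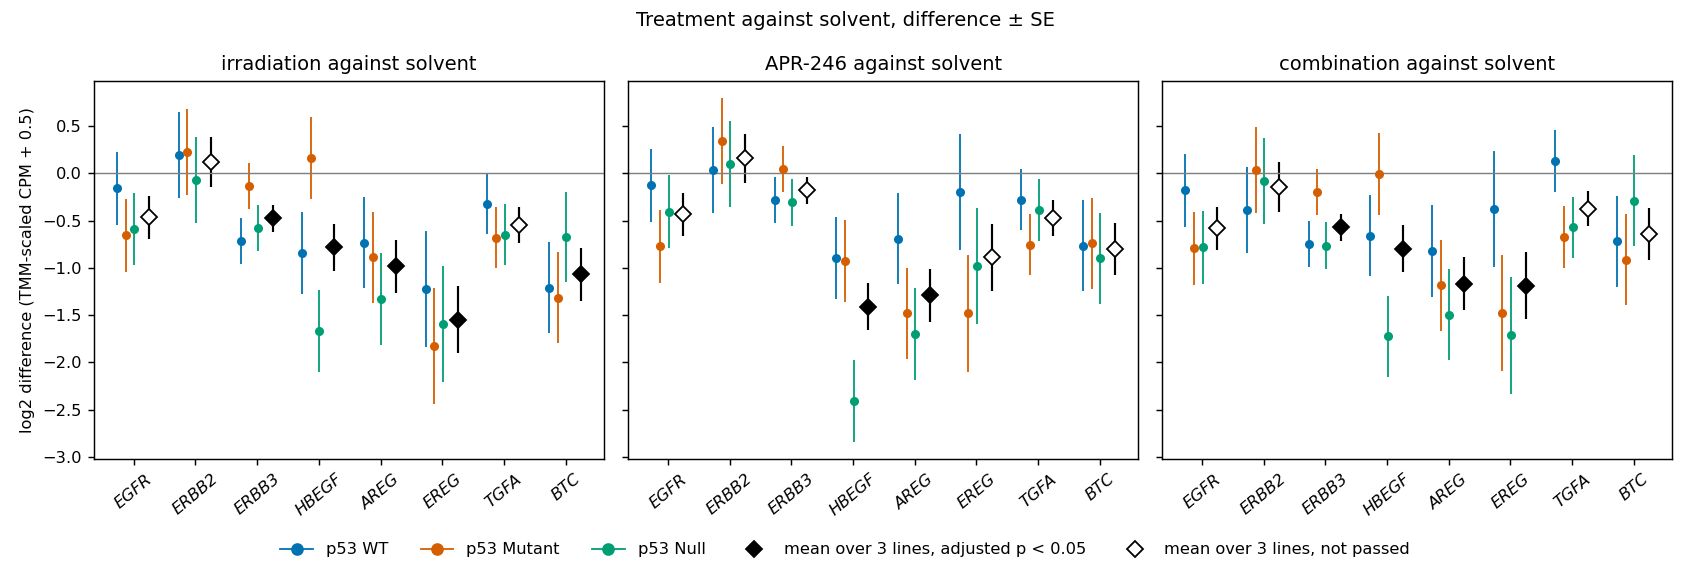
Log2 difference from solvent ± SE for the 8 genes after irradiation, APR-246 and the combination, by line (circles) and as the mean over 3 lines (diamonds, filled where the adjusted p was under 0.05). The filled diamonds are 5, 2 and 4 in number and all lie below 0.

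Whether the drug added to irradiation was asked by 3 further contrasts over the 3 lines. Against irradiation alone the combination changed none of the 8 genes by limma, edgeR or DESeq2, with 0 at an unadjusted p under 0.05 (6% of all genes) and 0% of all genes called. EREG differed by 0.36 ± 0.36, BTC by 0.43 ± 0.28 and HBEGF by -0.01 ± 0.25. Against APR-246 alone none passed by limma, edgeR or DESeq2, though 2 had an unadjusted p under 0.05 (11.3% of all genes) and 1.08% of all genes passed. These were ERBB3 at -0.39 ± 0.14 (adjusted p = 0.26) and HBEGF at 0.61 ± 0.25 (adjusted p = 0.337), which passed without WT APR-246 1. When the GC slope was a covariate (17.1% of all genes called), ERBB3 (-0.39, adjusted p = 0.00377) and ERBB2 (-0.31, adjusted p = 0.00182) passed.

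When the combination was set against the sum of both single effects, HBEGF gave 1.40 ± 0.35 (adjusted p = 0.131), EREG 1.25 ± 0.50, BTC 1.23 ± 0.39 and AREG 1.11 ± 0.40. All 4 values are above 0, the falls being smaller than the sum, but 0 of the 8 passed by limma, where 0.00484% of all genes did. TGFA gave 0.65 ± 0.265, EGFR 0.319 ± 0.315, ERBB3 0.085 ± 0.201 and ERBB2 -0.422 ± 0.372. Solvent enters this contrast with a plus sign, and the 4 ligands were called lower against the same solvent libraries. A high solvent value raises both, so the sign of the 4 values is no separate support. With a block for the library number more genes passed, as given in the closing section. An unadjusted p under 0.05 was found for 5 of the 8 and for 11.2% of all genes, edgeR called 0 and DESeq2 called 2 (HBEGF and BTC). Of all genes DESeq2 called 2.36% in this contrast. Without WT APR-246 1 there were 3 calls, and without WT APR-246 2 there was 1. With the GC slope as a covariate, where 15.4% of all genes were called, 4 passed: HBEGF (1.32, adjusted p = 0.0271), BTC (0.96, adjusted p = 0.0119), EREG (0.84, adjusted p = 0.0163) and TGFA (0.47, adjusted p = 0.0238).

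Between lines, 4 ligands differed: AREG, EREG and BTC in pairs with WT, and HBEGF between Mutant and Null. Averaged over the 4 treatments, AREG, EREG and BTC were higher in WT than in Null, 3 of the 8 genes, at a share of 11.8% of all genes called. Each of the 3 kept its call in all 16 omissions of 1 library and without TMM scaling. The calls also stood by edgeR, by DESeq2 and with the GC slope as a covariate.

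AREG was higher in WT by 1.52 ± 0.24 (adjusted p = 0.000487), with a range of 214 to 919 CPM over the 8 WT libraries (median 510) and of 76.2 to 450 over the 8 Null libraries (median 145). EREG was higher by 1.74 ± 0.31 (adjusted p = 0.00127), at 99.5 to 653 CPM (median 264) against 25.4 to 249 (median 92.8). BTC was higher by 1.32 ± 0.24 (adjusted p = 0.00163), at 1.67 to 9.99 CPM (median 3.55) against 0.519 to 2.19 (median 1.05). The ranges overlapped for each gene. EPGN, the remaining ligand of the cluster, was also higher in WT, by 0.41 ± 0.08 (adjusted p = 0.00378), but at 0 to 0.469 CPM, where 3 reads correspond to 0.0517 to 0.0564 CPM.

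In solvent alone none of the 8 differed between WT and Null by limma, edgeR or DESeq2, with 2 at an unadjusted p under 0.05 (7.31% of all genes) and 0.992% of all genes called. AREG differed by 0.95 ± 0.48, EREG by 1.11 ± 0.62 and BTC by 1.53 ± 0.48 (adjusted p = 0.235). These values have larger errors than the means over treatments, being drawn from 2 libraries a line.

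Mutant cells had less AREG and EREG than WT cells over the 4 treatments, 2 of the 8 genes, with 9.65% of all genes called. AREG was lower by a log2 difference of -2.23 ± 0.24 (adjusted p = 1.4e-05) and ran from 35.7 to 234 CPM over the 8 Mutant libraries (median 105). EREG gave -1.37 ± 0.31 (adjusted p = 0.0086), with 42.1 to 440 CPM in Mutant (median 110). BTC missed the threshold at -0.74 ± 0.24 (adjusted p = 0.0644) and had 0.784 to 6.24 CPM in Mutant (median 1.75). The count of 2 became 3 without WT solvent 2, Mutant solvent 1 or Mutant combination 1, through BTC in each case, and 5 without WT APR-246 2. In solvent alone 0 passed by limma and edgeR and 1 by DESeq2 (AREG), with 1 at an unadjusted p under 0.05 (5.81% of all genes) and 0.629% of all genes called by limma. DESeq2 called 1.35% of all genes.

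HBEGF differed between Mutant and Null, most of all in solvent. It was lower in Mutant by a log2 difference of -2.23 ± 0.43 in solvent (adjusted p = 0.00919), where the libraries were at 20.3 and 10.3 against 78.6 and 48.1 CPM and 2.49% of all genes passed. Over the 4 treatments the difference was -0.97 ± 0.22 (adjusted p = 0.00664), for 1 of the 8 genes, with 12% of all genes called. Over the 16 omissions it ran from -1.01 to -0.93. After irradiation the Mutant libraries were at 16.7 and 13.9 CPM against 24.5 and 18.3 in Null. After APR-246 they were at 8.45 and 5.93 against 12.7 and 12.7. After the combination the lines overlapped, at 17.2 and 13.3 in Mutant against 23.7 and 15.3 in Null. The solvent call was lost on omission of Mutant solvent 2, Null solvent 1 or Null solvent 2, and both calls were lost without TMM scaling. AREG gave -0.71 ± 0.24 (adjusted p = 0.0708) over the 4 treatments, and omitting Mutant APR-246 1 brought it past the threshold.

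EGFR, ERBB2, ERBB3 and TGFA differed between lines in none of these 6 contrasts by limma. Over the 4 treatments EGFR differed by 0.13 ± 0.19 (WT against Null), 0.33 ± 0.19 (Mutant against Null) and 0.20 ± 0.19 (Mutant against WT). ERBB2 ran from -0.23 ± 0.23 (WT against Null) to 0.15 ± 0.23 (Mutant against WT) and ERBB3 from -0.24 ± 0.12 (Mutant against Null) to -0.11 ± 0.12 (WT against Null). The ratio of the highest to the lowest group mean was 1.4 for ERBB2, 1.72 for ERBB3, 2.13 for TGFA and 2.66 for EGFR, against 6.89 for EREG, 8.82 for HBEGF, 8.95 for BTC and 9.28 for AREG. With the GC slope as a covariate, where 35.5% of all genes were called for Mutant against Null and 31.8% for Mutant against WT, the following passed. EGFR was higher in Mutant than in WT (0.32, adjusted p = 0.00387) and than in Null (0.23, adjusted p = 0.0254), TGFA was lower in Mutant than in WT (-0.33, adjusted p = 0.00394) and than in Null (-0.38, adjusted p = 0.00111), and ERBB3 was lower in Mutant than in Null (-0.28, adjusted p = 0.00638). BTC and AREG then also passed in Mutant against Null (0.47 and -0.79), and BTC in Mutant against WT (-0.61).

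**Figure D4:**
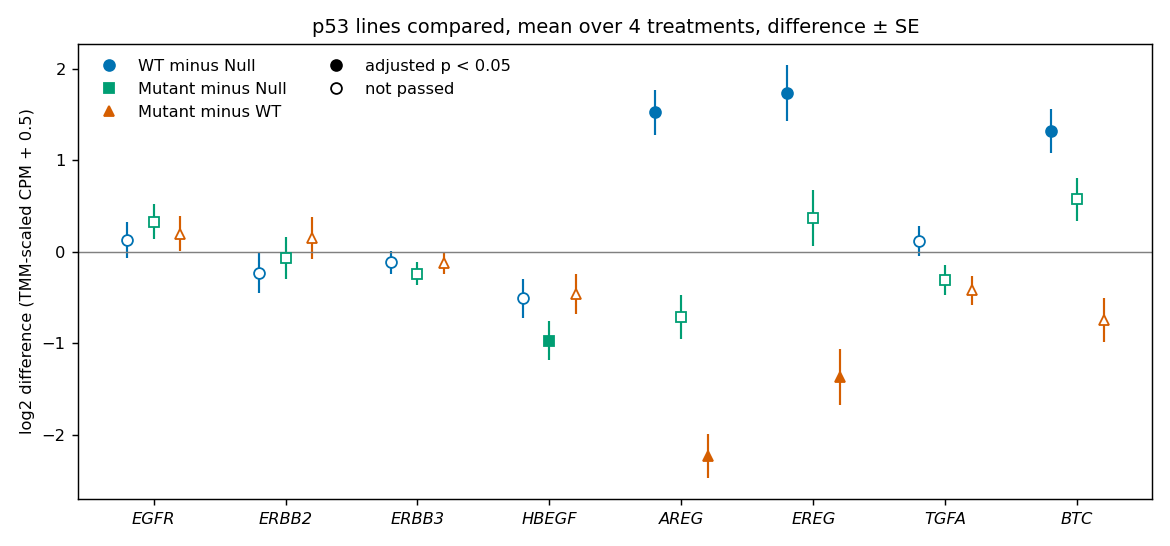
Log2 difference ± SE between the p53 lines, as the mean over 4 treatments, with filled symbols where the adjusted p was under 0.05. AREG, EREG and BTC lie above 0 for WT minus Null (1.52, 1.74 and 1.32), and the receptors lie close to 0 for every pair.

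By mean CPM the order of the 12 groups put WT solvent first for AREG and BTC and WT APR-246 first for EREG. For HBEGF, Null solvent stood first, and the 2 libraries of Null solvent lay above those of the next group, WT solvent. Of the 11 neighbouring pairs in each order, all 11 overlapped in their libraries for EGFR, ERBB2, ERBB3, EREG and TGFA, 10 for AREG and BTC and 9 for HBEGF. These counts only describe the libraries, since the groups were sorted on the same values. No share over all tested genes was computed. The second gap for HBEGF lay between Null APR-246 and Mutant APR-246, the lowest group at 7.19 ± 1.78 CPM.

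Whether a treatment acted differently in the lines was tested as the difference between responses, WT or Mutant minus Null, for each of the 3 treatments. None of the 48 values passed by limma, edgeR or DESeq2, and 4 of the 48 had an unadjusted p under 0.05, all of them for HBEGF. Of all tested genes 1.24% to 4.89% had such a p in the 6 tests. The 4 HBEGF values share the 2 Null solvent libraries (78.57 and 48.15 CPM), the highest group for HBEGF, so they are not independent. The share of all genes called was 0.029% for irradiation and 0.029% for the combination (WT minus Null) and 0% in the other 4. The HBEGF values were 1.83 ± 0.61 for irradiation, 1.48 ± 0.61 for APR-246 and 1.72 ± 0.61 for the combination (Mutant minus Null, adjusted p = 1 for each), and 1.51 ± 0.61 for APR-246 in WT minus Null (adjusted p = 1). Without WT APR-246 2 the last of these passed, and over its 8 omissions it ran from 0.43 to 2.60.

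Over the 9 comparisons of a treatment with solvent within a line, the libraries did not overlap in 20 of 72 gene comparisons with all treated libraries lower and in 1 with all higher. Over all tested genes, in deposited CPM as here, 10.4% of such comparisons were all lower and 20.5% all higher. AREG accounted for 6 of the 20, HBEGF for 5, EREG for 4, BTC for 3 and ERBB3 and TGFA for 1 each, and the 1 higher was ERBB2 after APR-246 in Null. The fitted differences of AREG, EREG, BTC and EGFR were negative in 9 of 9 comparisons. The share of all tested genes with such signs was not computed. Within a line every treatment was set against the same solvent libraries, so a high solvent value lowers all of that line's differences together. The 9 comparisons are therefore not independent, and the counts of signs and of libraries without overlap only describe the libraries.

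Several ligands varied together over the 24 libraries. Pearson's r of log2 expression was 0.87 for EREG with BTC, 0.83 for EREG with AREG and 0.71 for AREG with BTC. TGFA, which lies outside the cluster, had r of 0.77 with EREG and 0.75 with AREG. With EGFR the 3 cluster ligands had r of 0.63 (EREG), 0.53 (BTC) and 0.32 (AREG). Over the 12 group means the 3 pairs of cluster ligands stood at 0.89, 0.83 and 0.71. The points share the library, its depth and its GC slope, with which EREG had r of -0.73, BTC -0.65 and AREG -0.41, so these values only describe the libraries.

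**Figure D5:**
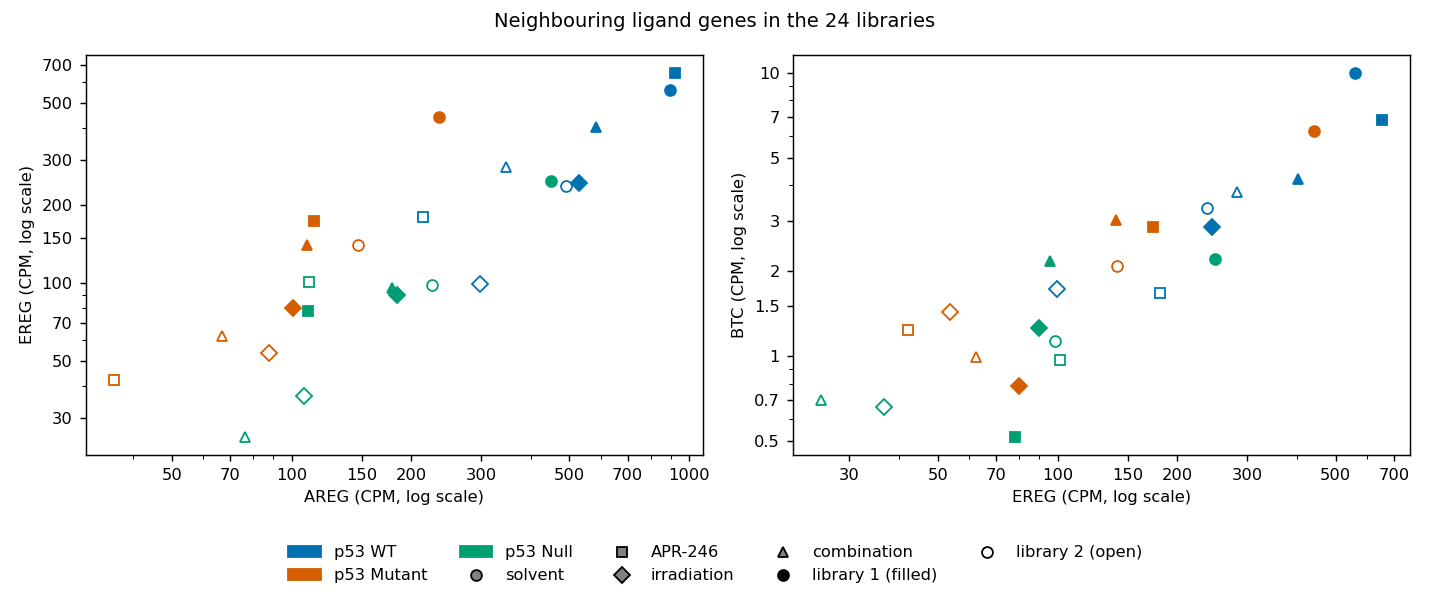
EREG against AREG and BTC against EREG in the 24 libraries (CPM, log scales), by line (colour), treatment (symbol) and library number (filled or open). The WT solvent and WT APR-246 libraries numbered 1 hold the highest AREG and EREG values, 895 and 919 CPM for AREG.

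Among 10743 other genes of at least moderate level, those most like each member were listed by r over the 24 libraries. For HBEGF they were TUFT1 (0.855), the stress-response factor ATF3 (0.851) and KRT80 (0.848). For AREG they were ARRDC4 (0.924), CYP4F11 (0.9) and ICA1 (0.895), and for EREG CHMP1B (0.967), TSC22D1 (0.966) and MAML3 (0.953). ERBB2 had SMYD5 (0.98), USP19 (0.979) and BTBD2 (0.979), while its own r with the GC slope of the libraries was 0.93. ATF3 was at 160 and 89.9 CPM in Null solvent and at 24.6 and 28.1 in Null APR-246, and at 79.4 and 19.3 in WT APR-246, where HBEGF was also split.

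The calls for genes outside the 8, here and below, rest on the main fit and were not tried under the alternative runs. The other receptors and ligands were scarce. NRG1, a ligand of ERBB3 and ERBB4, was at 0 to 6.30 CPM, NRG2 at 0.198 to 11.6, and EGF, EPGN, ERBB4, NRG3 and NRG4 did not exceed 0.657. Of the 7 genes 6 were tested, of which 2 rose after irradiation as a mean over lines, with a list median of 0.15 against -0.01 for all genes. Of the 20668 tested genes 1413 were called higher in this comparison. NRG1 rose by 0.81 ± 0.23 (adjusted p = 0.0289) and NRG2 by 1.03 ± 0.31 (adjusted p = 0.0401).
In the WT line NRG1 rose by 2.004 ± 0.40 after irradiation (adjusted p = 0.0205), from 0.216 and 0.183 CPM to 1.80 and 2.75, and by 2.57 ± 0.40 after the combination (adjusted p = 0.00322), to 2.88 and 6.30 CPM. In Null it was already at 2.09 and 1.01 CPM in solvent, and in the 8 Mutant libraries at 0 to 0.104 CPM, close to the level of 3 reads. NRG1 was lower in Mutant than in Null over the 4 treatments (-2.39 ± 0.20, adjusted p = 6.27e-07), and NRG2 was higher there (2.52 ± 0.27, adjusted p = 8.7e-06).

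Of 6 genes for ligand release 5 were tested. After irradiation 1 was called lower and 0 higher, where 6.13% of all genes were lower, and the list median was 0.17 against -0.01 for all genes. After the combination 1 was lower and 1 higher, with a list median of -0.16 against 0.01. There 6.29% of all genes were lower, and 1577 of 20668 were higher. ADAM17, a protease that frees several of these ligands, fell by 1.25 ± 0.31 after irradiation (adjusted p = 0.0153) and fell by 1.18 ± 0.31 after the combination (adjusted p = 0.0187). It was at 69.3 and 25.3 CPM in WT solvent, 74.1 and 25.7 in Mutant and 58.0 and 20.9 in Null, and after irradiation at 26.7 and 11.5, 19.3 and 13.5, and 24.9 and 11.01. FRMD8, which stabilises the ADAM17 complex, rose after the combination (0.70 ± 0.21, adjusted p = 0.0358). No other gene of the list passed in a mean comparison with solvent.

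Of 12 adaptor and turnover genes, all tested, 3 fell after irradiation and 2 after the combination, none rose, and the list medians were -0.46 and -0.53, where 6.13% and 6.29% of all genes were lower. The ubiquitin ligase CBLB fell by 0.63 ± 0.18 after irradiation (adjusted p = 0.0289). RNF41, which promotes turnover of ERBB3, fell by 0.56 ± 0.15 (adjusted p = 0.0228), and the endocytic adaptor EPS15 fell by 0.92 ± 0.27 (adjusted p = 0.0336).

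Of 14 feedback inhibitors, all tested, 3 fell after irradiation, 1 after APR-246 and 3 after the combination, and none rose. Of all genes 6.13%, 1.96% and 6.29% were lower in these comparisons, and the list medians were -0.30, -0.26 and -0.20. ERRFI1, which binds and inhibits EGFR and ERBB2, fell by 1.81 ± 0.38 after irradiation (adjusted p = 0.00557) and fell by 1.82 ± 0.38 after the combination (adjusted p = 0.00481). Its solvent libraries ran from 581 to 2079 CPM (median 1132) and its irradiated libraries from 199 to 553 (median 321), so that the ranges did not overlap. DUSP5, a nuclear phosphatase that acts on ERK, fell after all 3 treatments, with log2 differences of -1.27 ± 0.31 after irradiation (adjusted p = 0.0146), -1.75 ± 0.31 after APR-246 (adjusted p = 0.00843) and -1.76 ± 0.31 after the combination (adjusted p = 0.00168).
DUSP5 stood at 485 to 1263 CPM in the 6 solvent libraries, 232 to 341 in the irradiated ones and 157 to 316 after the combination, without overlap. After APR-246 it ran from 85.6 to 772 CPM, the highest value being WT library 1, which also held the highest AREG value. SPRY4, an inhibitor of receptor signalling to RAS, fell by 0.98 ± 0.26 after irradiation (adjusted p = 0.0234) and fell by 1.33 ± 0.26 after the combination (adjusted p = 0.00347). LRIG1, which promotes degradation of EGF receptors, was the 1 gene of the 14 that passed between lines by limma. In solvent it was at 8.06 and 4.42 CPM in WT and at 1.60 and 0.798 in Null, a difference of 1.92 ± 0.26 (adjusted p = 0.000666).

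Some of the 8 genes overlap other genes, and whether the counting used strand is not given in the sources used here. EGFR overlaps its antisense gene EGFR-AS1, ERBB2 overlaps PGAP3 and MIEN1 on the other strand and the microRNA gene MIR4728, ERBB3 overlaps AC034102.2 on its own strand, and TGFA holds the intronic gene TGFA-IT1. AREG, EREG, BTC and HBEGF overlap no other annotated gene.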

How the data were processed

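Bulk polyadenylated RNA from 24 libraries was read as paired 100-base reads on a BGIseq500, per the labels' protocols. FastQC, STAR, featureCounts and Subread, with the build GRCh38.p13, are named in the submitters' processing notes. Their versions and the strand setting are not given in the sources used here. The authors deposited CPM per Ensembl gene, and for each library 100% of the deposited CPM values were whole multiples of 1 read within 0.05, which gave back the read counts. Of the recovered counts from 2 to 9, 74.5% to 81.5% were even, and whether both mates of a pair were counted is not given in the sources used here. If they were, a count of 3 reads stands for fewer fragments. Of 60675 identifiers 60419 had a symbol and 58444 an entry in GENCODE 29, used for positions, exon length and GC content. GC content is that of a gene's longest transcript. Printed levels are the deposited CPM, and per kb divides them by the summed length of a gene's exons.

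Genes were kept by edgeR's filterByExpr (minimum count 10), leaving 20668. Log2(CPM + 0.5), after scaling by TMM (trimmed mean of M-values), was fitted in limma 3.58.1 (R 4.3.3) with 12 group means, 12 residual degrees of freedom, trended robust variance, 27 contrasts, and Benjamini-Hochberg adjustment over all tested genes at 0.05. Fold changes on this scale understate changes of genes at low levels. Alternatives were edgeR 4.0.16 (quasi-likelihood) and DESeq2 1.42.0 on the recovered reads, no TMM scaling, pseudocounts of 0.1 and 1, no filter on low counts, a block for the library number, the GC slope of a library as a covariate (98.3% of tested genes had a GC value), both together, the libraries of the compared lines only, and leaving out each library in turn. The fitting code was tested on simulated data. The named genes were the 8 members and, from 4 lists of pathway genes, those past the threshold in a comparison described. The alternative runs were read out for the 8 members only. The 3 genes of most like pattern for a member were those with the highest r among tested genes with a mean log2 level of at least 2. Members and lists were chosen with earlier results of these data known. Depth does not limit the members, the lowest of which (BTC) stood at 0.519 CPM or more, and counting limits cover counting error only. The level of the targeted gene is not reported here.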

Additional observations from a re-analysis of the deposited data

How the results depend on the processing

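The numbers of the 8 genes past the threshold, each against solvent unless another pair is named, changed with the processing as follows. The cause was not tested. Where no share of all genes stands beside a count, the count does not set the 8 genes apart from the rest. The 3 genes higher in WT than in Null as a mean over treatments (AREG, EREG and BTC) passed under each alternative run. By edgeR the count for APR-246 in Null was 0 instead of 1. With a pseudocount of 0.1 it was also 0, and irradiation as a mean over lines gave 4 instead of 5, without HBEGF. DESeq2 gave, as means over lines, 6 for irradiation (adding TGFA), 3 for APR-246 (adding BTC) and 5 for the combination (adding EGFR), and 3 for Mutant against WT over treatments (adding BTC). Of all genes it called 18.4%, 7.3%, 18.3% and 13.5% in these comparisons. It gave 2 for APR-246 in Null, 3 for the combination in Null, 1 for the combination in WT, 1 for irradiation in Mutant, 1 for irradiation in Null, 2 for the combination minus the sum of both effects, 2 for Mutant against Null over treatments and 1 for Mutant against WT in solvent. Of all genes DESeq2 called 2.21% for APR-246 in Null and 15.8% for Mutant against Null over treatments, with the other shares given above. A pseudocount of 1 gave 1 for the combination in Null, and fitting only the libraries of the compared lines gave 2 for Mutant against Null over treatments. Without the filter on low counts the means over lines gave 2 for irradiation and 2 for the combination, and APR-246 in Null gave 0.

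Without TMM scaling the means over lines gave 0 for irradiation, 1 for APR-246 and 0 for the combination, APR-246 in Null gave 0, Mutant against Null gave 0 over treatments and 0 in solvent, and Mutant against WT gave 1 over treatments. The shares of all genes called for the 3 means over lines were then 12.7%, 4.13% and 15.2%.

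With the GC slope as a covariate the means over lines gave 6 for irradiation, 6 for APR-246 and 8 for the combination, 2 for the combination against APR-246 and 4 for the combination minus the sum. In single lines it gave 3 (WT), 1 (Mutant) and 6 (Null) for irradiation, 3 (Mutant) and 4 (Null) for APR-246, and 2 (WT), 3 (Mutant) and 5 (Null) for the combination. Between lines it gave 6 over treatments and 2 in solvent for Mutant against Null, 5 and 3 for Mutant against WT, and 1 in solvent for WT against Null. ERBB2 after irradiation, as a mean over lines, turned from 0.12 to -0.203 with the GC slope and to -0.198 with the slope and the block for the library number.

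Libraries with the same number deviated together from their group means in 11 of the 12 groups: the 55 pairs of groups without Null APR-246 had correlations of 0.38 to 0.9. The 11 pairs with Null APR-246 had -0.56 to -0.14. The labels do not say what a number marks, and since not every pair was over 0.1, the number was not used as a block in the reported tests. With a replicate block the counts for means over lines were 7 for irradiation (adding EGFR and TGFA), 6 for APR-246, 7 for the combination, 1 for the combination against APR-246 and 5 for the combination minus the sum. The share of all genes called with the block is not set beside these counts. In single lines the replicate block gave 2 (WT), 3 (Mutant) and 3 (Null) for irradiation, 2 (Mutant) and 2 (Null) for APR-246, and 1 (WT), 4 (Mutant) and 5 (Null) for the combination. Between lines it gave 5 for Mutant against Null and 4 for Mutant against WT over treatments, and 1 for Mutant against WT and 1 for WT against Null in solvent. The replicate block with the GC slope gave 7 (irradiation), 6 (APR-246), 8 (combination), 2 (combination against APR-246) and 5 (combination minus the sum) as means over lines. In single lines it gave 2 (WT), 2 (Mutant) and 6 (Null) for irradiation, 4 (Mutant) and 4 (Null) for APR-246, 2 (WT), 4 (Mutant) and 6 (Null) for the combination. Between lines it gave 6 and 2 for Mutant against Null, 5 and 3 for Mutant against WT (over treatments and in solvent), and 2 in solvent for WT against Null.

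When 1 library was left out, the counts ran from 1 to 5 for irradiation, 1 to 4 for APR-246 and 1 to 3 for the combination as means over lines, from 0 to 1 for the combination against APR-246 and from 0 to 3 for the combination minus the sum. They ran from 0 to 1 for APR-246 in WT and for the APR-246 response in WT minus Null, were 0 throughout for APR-246 in Null, and ran from 2 to 5 for Mutant against WT over treatments, from 3 to 4 for WT against Null over treatments, and from 1 to 2 over treatments and 0 to 1 in solvent for Mutant against Null. A group then has 1 library, which is assumed to vary like the other groups. All 8 genes lay above the level of 3 reads in every library, the lowest value being 0.519 CPM for BTC.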
